A study of Mus musculus with 21 samples.

Results

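Repeated exposure to lipopolysaccharide (LPS) was examined in mouse lung tumours, by comparing 3 libraries of tumours from mice given NNK and then LPS (NNK + LPS) with 3 libraries of tumours from mice given NNK alone (NNK). These are 6 of the 21 RNA-seq libraries of the study. All genes of the count table that passed a filter on low counts were compared, 15770 of 38924. NNK is a nicotine-derived nitrosamine of tobacco smoke, and the NNK + LPS and NNK mice both received it as 1 intraperitoneal dose of 100 mg/kg. In the NNK + LPS group LPS followed from 1 week after NNK, as 5 µg per mouse in 50 µL by the nose, 1 time per week. LPS lung (LPS without NNK) and Control lung (vehicle alone) are used below to set the tumour response beside that of lung without tumours. Per the labels, the LPS group received the same LPS dose and volume on the same weekly schedule. All mice were females of the A/J strain, sampled 22 weeks after treatment, per the labels, which give no age. Tumour RNA was taken from dissected tumours, pooled over 3 mice in each group, while LPS and Control RNA was taken from normal lung. Whether a group's 3 libraries stand for 3 different mice is not stated in the labels, so p-values measure the spread between libraries, which may be technical in part.

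LPS is sensed by TLR4, whose signal through NF-kB switches on cytokines and chemokines that draw neutrophils and monocytes into the airspaces. Monocytes that arrive from blood carry the Ly6C glycoprotein and mature into macrophages, while repeated exposure also brings lymphocytes and antibody-secreting plasma cells into the lung. A/J mice are highly prone to NNK-induced lung adenomas, which resemble alveolar type 2 cells. The surfactant gene Sftpc, the defining transcript of type 2 cells, stood at 29532, 36179 and 26165 CPM in NNK + LPS tumours, against 25001, 21856 and 22977 CPM in NNK tumours. It was also high in lung without tumours, at 9451, 9321 and 6208 CPM in LPS lung, against 19787, 20172 and 15661 CPM in Control lung. The tumour pieces held other cells too. The endothelial cadherin gene Cdh5 was at 359, 408 and 593 CPM in NNK + LPS tumours, against 680.2, 762 and 670.3 CPM in NNK tumours, and the club cell secretoglobin gene Scgb1a1 at 13516, 10819.5 and 18075 CPM in NNK + LPS tumours, against 12728, 17871 and 18827 CPM in NNK tumours. In bulk tissue, fewer cells of a type and less RNA per cell cannot be told apart.

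The 6 tumour libraries held 14565726 to 17471990 counts each. Levels are in CPM, counts scaled to a common library size after normalisation. The median SD between the libraries of a group, over genes on the log2 scale, was 0.160 in NNK + LPS, 0.136 in NNK, 0.120 in LPS and 0.128 in Control. Sets of libraries within the study differed in how many mt-Atp8 counts they had per mt-Atp6 count, a pair of adjacent mitochondrial genes. This mt-Atp8 ratio stood at 0.0782 to 0.0832 in the NNK + LPS libraries, against 0.0212 to 0.0236 in the NNK libraries. LPS 3 had 0.0854, while the other two LPS libraries had 0.0222 in both cases. The Control libraries had 0.0206 to 0.0217. The labels give no batch, and the effect of LPS in tumours cannot be told apart from whatever set these libraries apart, because no NNK library lies with the NNK + LPS libraries. The difference of LPS 3 from the mean of LPS 1 and LPS 2 is therefore given beside each called gene, since these 3 libraries share a treatment but lie on both sides of the split.

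Other libraries stood apart within their group. The glucocorticoid-induced gene Fkbp5 was at 116, 99.9 and 16.0 CPM in NNK + LPS tumours, against 114, 89.9 and 14.2 CPM in NNK tumours, and Zbtb16, another gene of that list, at 167, 95.9 and 9.39 CPM in NNK + LPS tumours, against 269, 305 and 8.35 CPM in NNK tumours. Both were low in NNK + LPS 3 and in NNK 3. The airway secretory gene Bpifa1 was at 277, 3.41 and 3.76 CPM in NNK + LPS tumours, against 32.6, 153 and 72.2 CPM in NNK tumours, and Scgb3a1, expressed in airway secretory cells, at 259, 2.95 and 11.7 CPM in NNK + LPS tumours, against 47.5, 92.5 and 37.9 CPM in NNK tumours. NNK + LPS 1 was high for both and the other NNK + LPS libraries low. Within each group these genes vary between libraries, and their part in the results below was not tested.

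The gene that rose with the smallest p-value was Ly6c2, on chromosome 15 (GRCm38, 75108158 to 75111970, minus strand). Ly6c1 on the same chromosome is a near-identical copy, so both sequences are shown to make clear how far reads can separate them. Their coding sequences are 393 bases each and differ at 9 positions, an identity of 97.7%. The first 120 coding bases of each, 5′ to 3′ on the sense strand and from the GENCODE M21 transcripts of GRCm38, have in capitals the 6 positions in this stretch at which the copies differ.
Ly6c2: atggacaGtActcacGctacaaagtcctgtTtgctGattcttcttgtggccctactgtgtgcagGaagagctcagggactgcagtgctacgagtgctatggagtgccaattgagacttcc
Ly6c1: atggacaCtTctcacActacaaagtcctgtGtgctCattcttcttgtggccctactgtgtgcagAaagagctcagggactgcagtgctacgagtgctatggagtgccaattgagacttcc
The differing bases lie in the first part of this stretch, and its last part is the same in both copies. Of the 50-base windows of the Ly6c2 transcripts, 30.8% also occur in Ly6c1. Reads from such windows cannot be placed by sequence alone, and how the counting treated them is not given in the sources used here. The A/J genome also differs from the C57BL/6J reference.

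Few genes passed edgeR's threshold between NNK + LPS and NNK tumours. They included Ly6c2, which rose, and the guidance gene Slit3, which fell. With 3 libraries per group, a gene that did not pass is not shown to be unchanged. By edgeR's quasi-likelihood test, 15 of the 15770 genes passed at a Benjamini-Hochberg adjusted p under 0.05, or 0.0951% of genes, 10 higher and 5 lower in NNK + LPS tumours. With size factors by relative log expression the split was 11 higher and 9 lower. For 7 of the 15 the fold was at least 2. For each of the 15, no NNK + LPS library overlapped the NNK libraries, against a background of 10.7% of genes higher and 9.5% lower without overlap. The 15 were called on these same libraries, so their separation follows largely from the call. At an unadjusted p under 0.05, 8.31% of genes were higher and 7.65% lower. DESeq2 called 494 of 15146 genes with an adjusted p, or 3.26%, and these included all 15.

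Genes expressed in myeloid cells were among those that rose, but which cells carried them in these tumours was not tested. Ly6c2, whose product marks inflammatory monocytes, was at 72.4, 55.0 and 75.6 CPM in NNK + LPS tumours, against 25.2, 23.2 and 27.9 CPM in NNK tumours. The lowest NNK + LPS library was well above the highest NNK library. The log2 fold change was 1.41 ± 0.17 (SE, 3 libraries per group, edgeR adjusted p = 0.00417). In lung without tumours Ly6c2 was at 118, 116 and 114 CPM in LPS lung, against 16.8, 15.7 and 21.0 CPM in Control lung, a log2 fold change of 2.70 ± 0.18 (edgeR adjusted p = 1.14e-08). The 3 LPS lung libraries lay close together, and LPS 3 differed from the mean of LPS 1 and LPS 2 by -0.04 on the log2 scale. Ly6c1, which is also expressed in endothelial cells, was at 251, 309.7 and 323 CPM in NNK + LPS tumours, against 272, 335 and 278 CPM in NNK tumours. The groups overlapped for Ly6c1, in contrast to its neighbour. Clec4a2, which encodes an inhibitory lectin receptor of dendritic cells and other myeloid cells, was at 15.7, 21.4 and 17.8 CPM in NNK + LPS tumours, against 9.50, 8.27 and 11.0 CPM in NNK tumours. Its log2 fold change was 0.93 ± 0.17 in tumours (edgeR adjusted p = 0.0409) and 2.10 ± 0.17 in lung, where it was at 37.0, 39.5 and 36.2 CPM in LPS lung, against 6.83, 8.30 and 11.0 CPM in Control lung. LPS 3 differed from LPS 1 and LPS 2 by -0.08 for this gene. Cd63, a tetraspanin of lysosomes and secretory granules, was at 270.2, 278 and 243 CPM in NNK + LPS tumours, against 181, 169 and 188 CPM in NNK tumours. The groups were apart, with a log2 fold change of 0.56 ± 0.10 (edgeR adjusted p = 0.0409), and LPS 3 was 0.28 above LPS 1 and LPS 2. On GRCm38, Clec4a2 lies on chromosome 6 (123106428 to 123143999) and Cd63 on chromosome 10 (128900989 to 128912822), both protein-coding and on the plus strand. A pseudogene copy, Cd63-ps, shares 22.4% of the 50-base windows of Cd63.

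**Figure D1:**
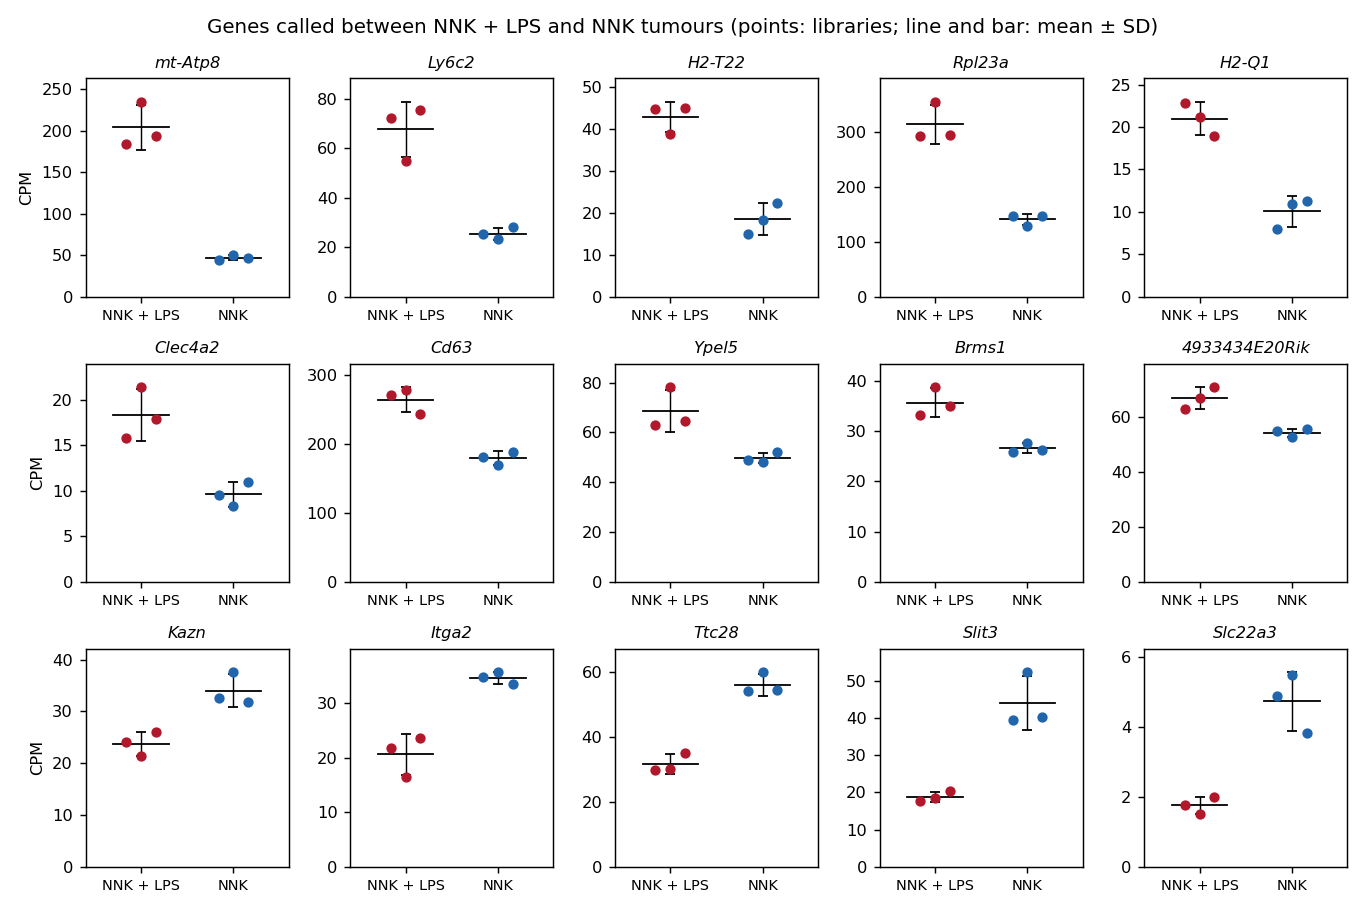
Each panel plots CPM of a gene called between NNK + LPS (red, left) and NNK (blue, right) tumours, 1 point per library, with the mean and SD as line and bar. In all 15 panels no NNK + LPS point lies among the NNK points, with NNK + LPS above in 10 panels and below in 5.

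For 4 further genes that rose, LPS 3 differed from LPS 1 and LPS 2 by at least 0.5 on the log2 scale in the same direction, a shift that 7.36% of all genes tested had in either direction. The mitochondrial gene mt-Atp8, a subunit of ATP synthase, was at 184, 235 and 193 CPM in NNK + LPS tumours, against 43.6, 50.1 and 47.0 CPM in NNK tumours, a log2 fold change of 2.12 ± 0.37 (edgeR adjusted p = 0.0412). Within LPS lung it was at 44.4, 46.4 and 166 CPM, so that LPS 3 stood at the level of the NNK + LPS tumours and the other LPS libraries at the level of NNK tumours. At 204 bases mt-Atp8 is short, and 43 of these bases are shared with mt-Atp6. Rpl23a, a ribosomal protein gene, was at 293, 356 and 296 CPM in NNK + LPS tumours, against 147, 129 and 147 CPM in NNK tumours, with a log2 fold change of 1.16 ± 0.19 and an LPS 3 difference of 0.72. Of its 50-base windows 85.7% occur in other genes, most of them in the copy Rpl23a-ps3. The MHC class I-like genes H2-T22 and H2-Q1 belong to families of close paralogs on chromosome 17. H2-T22 was at 44.9, 38.8 and 45.1 CPM in NNK + LPS tumours, against 14.8, 18.4 and 22.4 CPM in NNK tumours, a log2 fold change of 1.21 ± 0.22 beside an LPS 3 difference of 0.63. H2-Q1 was at 22.8, 21.2 and 18.9 CPM in NNK + LPS tumours, against 7.96, 10.9 and 11.2 CPM in NNK tumours, a log2 fold change of 1.06 ± 0.19 beside an LPS 3 difference of 0.66. With a term for the library sets, the fitted tumour difference of mt-Atp8 was 0.25 ± 0.22, against 1.45 ± 0.33 for Ly6c2 and 1.01 ± 0.31 for Clec4a2. It was 0.57 ± 0.32 for H2-T22, 0.44 ± 0.26 for Rpl23a, 0.40 ± 0.27 for H2-Q1 and 0.28 ± 0.16 for Cd63, all below the values without the term. It was 0.45 ± 0.13 for Ypel5, 0.32 ± 0.13 for Brms1 and 0.33 ± 0.10 for 4933434E20Rik, and among genes that fell -1.34 ± 0.39 for Slit3, -2.19 ± 0.41 for Slc22a3, -0.73 ± 0.27 for Ttc28, -0.81 ± 0.23 for Itga2 and -0.60 ± 0.15 for Kazn. For the tumour contrast the term is set by LPS 3 against LPS 1 and LPS 2 alone. These values, and the list medians with the term below, therefore largely restate the LPS 3 difference and are no separate evidence. The 4 genes above were picked by that difference, so their lower values under the term were set in advance. In the fit with the term no gene was called by edgeR, and 871 genes had an unadjusted p under 0.05. For Ly6c2 the SE was larger and the adjusted p was 0.516.

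Genes of guidance, adhesion and transport were among the 5 that fell. On GRCm38, Slit3 lies on chromosome 11 (35121224 to 35708507), Itga2 on chromosome 13 (114833081 to 114932100) and Ttc28 on chromosome 5 (110879803 to 111289780). Kazn lies on chromosome 4 (142102390 to 142239401) and Slc22a3 on chromosome 17 (12418960 to 12507704), and all 5 are protein-coding genes. Slit3, a secreted ligand of Robo receptors, was at 17.7, 18.4 and 20.3 CPM in NNK + LPS tumours, against 39.4, 52.4 and 40.2 CPM in NNK tumours, and the groups were widely apart (log2 fold change -1.23 ± 0.21, edgeR adjusted p = 0.0409). In lung without tumours it was at 29.7, 26.1 and 30.2 CPM in LPS lung, against 48.5, 37.9 and 35.0 CPM in Control lung, a difference that did not pass the test (edgeR adjusted p = 0.0536). Itga2, the alpha 2 subunit of a collagen-binding integrin, was at 21.8, 16.5 and 23.6 CPM in NNK + LPS tumours, against 34.7, 35.6 and 33.5 CPM in NNK tumours, a log2 fold change of -0.75 ± 0.13. Ttc28, which encodes a protein with tetratricopeptide repeats, was at 29.9, 30.1 and 35.2 CPM in NNK + LPS tumours, against 54.1, 60.1 and 54.4 CPM in NNK tumours, a log2 fold change of -0.82 ± 0.14. It also fell in lung, to 19.4, 17.4 and 17.2 CPM in LPS lung, against 46.3, 39.3 and 45.3 CPM in Control lung. Kazn, whose product kazrin binds desmosomal proteins, was at 24.0, 21.3 and 25.9 CPM in NNK + LPS tumours, against 32.6, 37.6 and 31.7 CPM in NNK tumours (log2 fold change -0.51 ± 0.08, edgeR adjusted p = 0.0311). For these 4 genes LPS 3 differed from the other LPS libraries by -0.09 to 0.12 on the log2 scale. Slc22a3, an organic cation transporter, was at 1.76, 1.51 and 1.99 CPM in NNK + LPS tumours, against 4.88, 5.47 and 3.81 CPM in NNK tumours, and fell by 1.42 on the log2 scale (SE 0.26). LPS 3 was 0.64 above LPS 1 and LPS 2 for Slc22a3, the opposite direction. Slc22a3 fell in lung as well, to 1.79, 1.91 and 3.16 CPM in LPS lung, against 6.52, 7.34 and 7.88 CPM in Control lung.

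The last 3 genes that rose had small fold changes. Ypel5, of the conserved yippee-like family, was at 62.8, 78.3 and 64.5 CPM in NNK + LPS tumours, against 49.1, 48.1 and 52.1 CPM in NNK tumours, a log2 fold change of 0.46 ± 0.07. Brms1, a component of histone deacetylase complexes, had 0.42 ± 0.07, and 80.9% of its 50-base windows are shared with another gene model. The uncharacterised gene 4933434E20Rik had 0.30 ± 0.06. LPS 3 differed from LPS 1 and LPS 2 by 0.0091 for Ypel5, 0.11 for Brms1 and -0.02 for 4933434E20Rik. Of the 15 genes, 11 were also called between LPS and Control lung, all 11 in the same direction, and lung called 25.3% of genes higher and 24.7% lower. They are 0.139% of the 7890 genes called in lung. Leaving out a library moved the count. EdgeR called 8 genes without NNK + LPS 1, 1 without NNK + LPS 2 and 223 without NNK + LPS 3, and 2 without NNK 1, 0 without NNK 2 (1651 at an unadjusted p under 0.05, DESeq2 not run) and 1 without NNK 3. Ly6c2 remained called in 5 of these 6 fits, with an adjusted p of 0.0761 without NNK 2. Each of the other 14 genes was called in 1 or 2 of the 6 fits. Across the 15770 genes, the tumour log2 fold change and the LPS 3 difference had a Pearson r of 0.0050, a description over genes that share the libraries and are not independent. The 2 values had the same sign for 52.7% of all genes, and for 56.2% of the 2517 genes with an unadjusted p under 0.05.

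**Figure D2:**
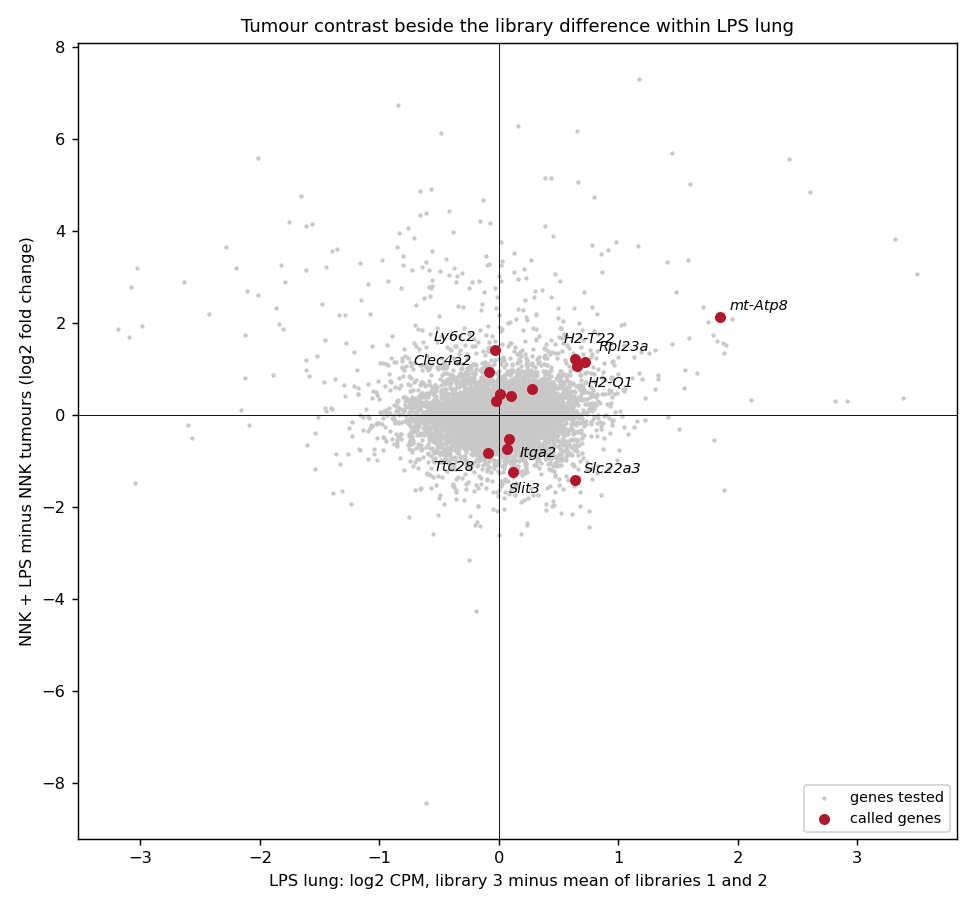
Each grey point is a gene tested, placed by the log2 difference of LPS 3 from the mean of LPS 1 and LPS 2 (x axis) and by the log2 fold change of NNK + LPS over NNK tumours (y axis), with the 15 called genes in red and the larger changes named. Ly6c2 and Clec4a2 lie near 0 on the x axis, whereas mt-Atp8, Rpl23a, H2-T22 and H2-Q1 lie to the right of it.

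Lists of genes with a shared role are described next, each with its first 3 members as a rule. Other members, such as the IgG genes, were picked for description with their values in view. Of the 15770 genes tested, 8043 had a log2 fold change above 0 and 7727 below 0, the background for counts by sign below.

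Antibody genes had the largest median difference of the 48 lists, but they varied widely between libraries. Of 11 immunoglobulin constant genes listed, 8 were tested, and all 8 had a log2 fold change above 0, with a median log2 fold change of 3.83 beside 0.0057 over all genes tested. EdgeR called none, though all 8 had an unadjusted p under 0.05 and DESeq2 called 7. The summed level of the list was 8259, 2884 and 8471 CPM in NNK + LPS tumours, against 791, 719.8 and 1431 CPM in NNK tumours. Even the lowest NNK + LPS library was above the highest NNK library. The list rose more in lung without tumours, with a median log2 fold change of 6.01 and 7 genes called higher by edgeR. Its summed level there was 8577, 13627 and 5884 CPM in LPS lung, against 227, 135 and 406 CPM in Control lung. Igkc, the kappa light chain constant gene, was at 1742, 657 and 1635 CPM in NNK + LPS tumours, against 149, 136 and 254 CPM in NNK tumours (log2 fold change 2.90 ± 0.65, edgeR adjusted p = 0.0722). Igha, the heavy chain of the mucosal antibody IgA, was at 2492, 1288 and 913 CPM in NNK + LPS tumours, against 521, 411 and 813 CPM in NNK tumours, with no overlap and a smaller log2 fold change of 1.43 ± 0.52. Ighg1 was at 1510.1, 249.8 and 996 CPM in NNK + LPS tumours, against 8.56, 16.6 and 32.3 CPM in NNK tumours, a log2 fold change of 5.58 ± 1.25 (edgeR adjusted p = 0.0722). The other IgG genes were likewise without overlap between the groups. Ighg2b was at 432, 198 and 814 CPM in NNK + LPS tumours, against 30.7, 17.2 and 30.5 CPM in NNK tumours. Ighg2c was at 595, 197 and 609 CPM in NNK + LPS tumours, against 21.2, 12.6 and 17.8 CPM in NNK tumours. Without NNK + LPS 3, Ighg2c had an edgeR adjusted p of 0.0470, and Ighg3 0.0450. With all libraries the adjusted p was 0.0639 for Ighg2c and 0.0722 for Ighg3. Ighg2c also passed when the groups compared were fitted alone (adjusted p = 0.0358). For Ighg3 the values were 752, 109 and 149.9 CPM in NNK + LPS tumours, against 2.88, 3.76 and 2.89 CPM in NNK tumours. IgG genes were thus scarce in NNK tumours, while IgA was already abundant there. Ighm, the IgM heavy chain, overlapped between the groups, at 551, 171 and 3117 CPM in NNK + LPS tumours, against 48.3, 116 and 257 CPM in NNK tumours. Immunoglobulin genes are similar to each other, so the division of counts among them is uncertain.

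**Figure D3:**
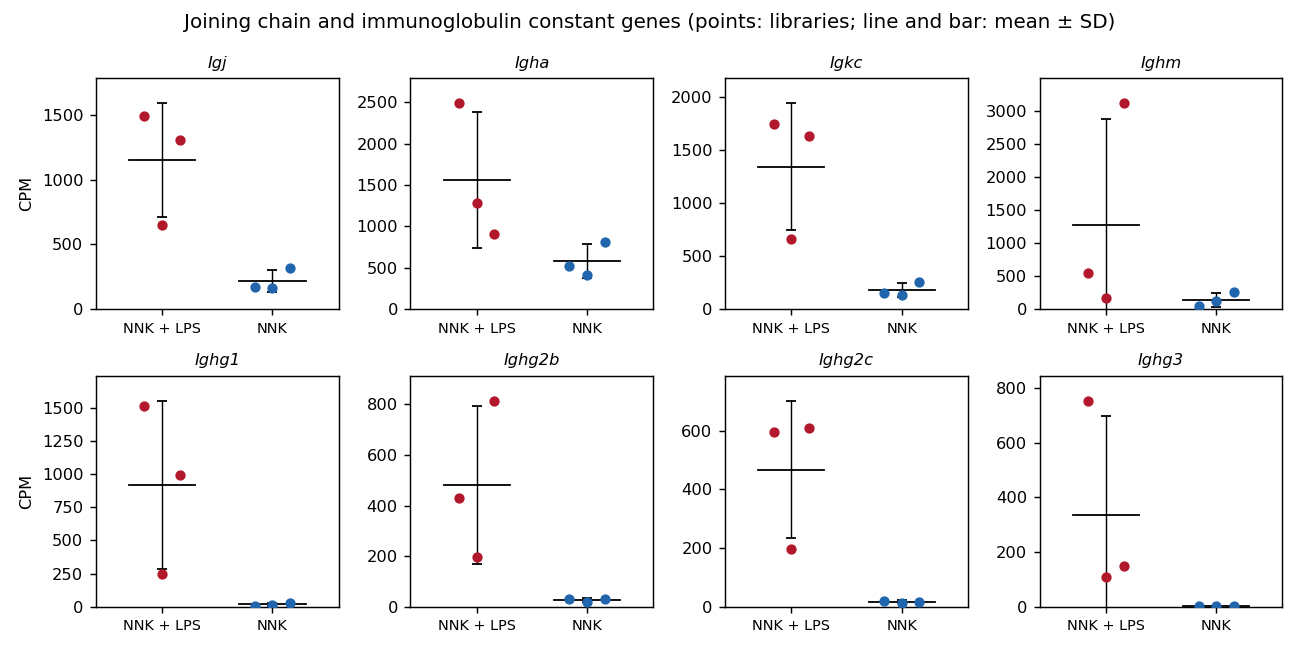
Panels plot CPM of Igj and 7 immunoglobulin constant genes in NNK + LPS (red, left) and NNK (blue, right) tumours, 1 point per library, with mean and SD. NNK + LPS libraries lie above the NNK libraries in all panels but Ighm, and spread widely among themselves.

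Of 12 plasma cell genes, 10 had a log2 fold change above 0 and 2 were higher without overlap. Igj, the joining chain of IgA and IgM polymers, was at 1495, 652 and 1306 CPM in NNK + LPS tumours, against 169, 167 and 319.6 CPM in NNK tumours (log2 fold change 2.40 ± 0.56, edgeR adjusted p = 0.0741, DESeq2 adjusted p = 4.69e-04). Mzb1, a chaperone of antibody secretion, was at 24.0, 7.87 and 35.7 CPM in NNK + LPS tumours, against 4.08, 2.12 and 8.61 CPM in NNK tumours, and the lowest NNK + LPS library overlapped the NNK libraries. Tnfrsf17, the plasma cell receptor BCMA, was at 1.89, 0.590 and 1.54 CPM in NNK + LPS tumours, against 0.0669, 0.410 and 0.723 CPM in NNK tumours, and overlapped likewise. EdgeR called none of the list, 6 were higher at an unadjusted p under 0.05, DESeq2 called 3, and the median log2 fold change was 1.09. Between LPS and Control lung the median of this list was 2.28, and edgeR called 11 of the 12 genes higher. The median difference of LPS 3 from LPS 1 and LPS 2 was -0.89 for the immunoglobulin genes, opposite to the tumour contrast, and with a term for the library sets their median tumour difference was 4.92. The 11 B cell genes tested, which include the surface marker Ms4a1, had a median of -0.08, with none called by edgeR or by DESeq2 and none at an unadjusted p under 0.05. Ms4a1 was at 9.50, 2.62 and 12.6 CPM in NNK + LPS tumours, against 4.75, 5.54 and 16.0 CPM in NNK tumours, and the groups overlapped. The octamer ATTTGCAT, a motif of immunoglobulin promoters, was searched on both strands and counted by gene, in any RefSeq promoter window of that gene. It was in 0 of 11 plasma cell genes with a window, in 0 of 6 such genes that rose and in 0 of 5 that fell. Of the 12014 tested genes with a window, 1.65% had it.

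Among T cell genes, 11 of 13 had a log2 fold change above 0, with a median log2 fold change of 0.66. Without NNK + LPS 1 that median was 0.42. EdgeR called none, 2 had an unadjusted p under 0.05 and DESeq2 called 1. Cd3e, a subunit of the T cell receptor complex, was at 9.31, 5.84 and 9.05 CPM in NNK + LPS tumours, against 3.95, 4.37 and 6.97 CPM in NNK tumours. Trac, the receptor's alpha constant gene, was at 5.66, 4.07 and 4.21 CPM in NNK + LPS tumours, against 1.60, 1.44 and 2.50 CPM in NNK tumours without overlap. The 12 regulatory T cell and checkpoint genes had a median of 0.47 and the 11 cytotoxic and NK cell genes 0.24, and edgeR and DESeq2 called none of either list, with none at an unadjusted p under 0.05. The median of the regulatory list was 0.31 without NNK 2, 0.31 without NNK + LPS 1, 0.75 without NNK 3 and 0.25 with the term for the library sets. Of 11 lymphoid chemokine and receptor genes, 2 were higher at an unadjusted p under 0.05 and neither tool called any. Cxcl13, which attracts B cells to follicles, was at 24.5, 18.1 and 22.7 CPM in NNK + LPS tumours, against 5.75, 6.90 and 6.90 CPM in NNK tumours. When the groups compared were fitted alone, Cxcl13 passed edgeR's threshold (adjusted p = 0.0228, against 0.273 in the fit of all groups). All NNK + LPS values of Cxcl13 were above the NNK values, yet far below those in LPS lung, which were 191, 223 and 192 CPM.

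Macrophage genes lay on both sides of 0. Of 13 monocyte and interstitial macrophage genes, Ly6c2 was called, 8 were higher and 1 lower at an unadjusted p under 0.05, DESeq2 called 3 higher, and the median log2 fold change was 0.49. The complement gene C1qa, made by tissue macrophages, was at 94.8, 68.3 and 67.7 CPM in NNK + LPS tumours, against 45.5, 35.9 and 48.6 CPM in NNK tumours (log2 fold change 0.83 ± 0.30, edgeR adjusted p = 0.198). The groups did not overlap. Ccr2, the chemokine receptor of monocytes, was at 38.5, 34.0 and 26.6 CPM in NNK + LPS tumours, against 20.1, 28.4 and 35.3 CPM in NNK tumours, and the groups overlapped. Ms4a7, a gene of monocyte-derived macrophages, was at 15.0, 11.1 and 11.2 CPM in NNK + LPS tumours, against 6.02, 4.17 and 5.78 CPM in NNK tumours, and it had an edgeR adjusted p of 0.0995. Csf1r, the growth factor receptor of the lineage, showed no such separation, at 196, 172 and 196 CPM in NNK + LPS tumours, against 194, 208 and 195 CPM in NNK tumours. The 15 alveolar macrophage genes had a median of 0.11, or 0.88 with the term for the library sets, and edgeR called none, while 3 were higher and 2 lower at an unadjusted p under 0.05 and DESeq2 called 1 in each direction. Marco, a scavenger receptor for bacteria, was at 14.4, 11.2 and 11.2 CPM in NNK + LPS tumours, against 49.5, 63.4 and 44.3 CPM in NNK tumours. The NNK + LPS values were the lower ones throughout, with a log2 fold change of -2.10 ± 0.47 (edgeR adjusted p = 0.0722). Marco passed edgeR's threshold when the groups compared were fitted alone (adjusted p = 0.0228). Trem2, a lipid-sensing receptor, went the other way, at 32.6, 26.2 and 26.9 CPM in NNK + LPS tumours, against 13.4, 11.7 and 15.8 CPM in NNK tumours (log2 fold change 1.07 ± 0.32, edgeR adjusted p = 0.131).

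Classical antigen presentation genes had higher values in NNK + LPS tumours without passing the test. Of 11 MHC class I and processing genes, edgeR called none, 4 were higher at an unadjusted p under 0.05, DESeq2 called 3 and the median log2 fold change was 0.49. H2-K1, a classical class I heavy chain gene, was at 2208, 1779 and 1814 CPM in NNK + LPS tumours, against 926, 1090.0 and 1389 CPM in NNK tumours (log2 fold change 0.77 ± 0.18, edgeR adjusted p = 0.0741). The shared light chain gene B2m was at 2563, 2177 and 2550.0 CPM in NNK + LPS tumours, against 1192, 1573 and 1746 CPM in NNK tumours (log2 fold change 0.69 ± 0.16, edgeR adjusted p = 0.0722). For both genes all NNK + LPS libraries were above all NNK libraries. The median of the list was 0.24 without NNK 1, 0.73 without NNK 3 and 0.22 with a term for the library sets. Of 9 MHC class II genes, 4 were higher at an unadjusted p under 0.05, neither tool called any, and the median was 0.39, or 0.16 with the term for the library sets. H2-Aa was at 1085, 890.5 and 848 CPM in NNK + LPS tumours, against 551, 595 and 757 CPM in NNK tumours, the groups being apart by a narrow margin. A/J mice carry other H2 alleles than the reference, which can affect how these reads align. Of 18 interferon-stimulated genes, 2 were higher at an unadjusted p under 0.05 and neither tool called any, with a median of 0.22. That median was 0.00045 without NNK 1 and 0.52 without NNK 3. Isg15, a ubiquitin-like interferon product, was at 15.0, 5.31 and 10.9 CPM in NNK + LPS tumours, against 6.62, 10.3 and 16.4 CPM in NNK tumours, with overlapping groups. All 18 rose in LPS lung.

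No inflammatory cytokine gene passed edgeR's test in tumours, although most rose in lung without tumours. The 25 cytokine and chemokine genes had a median log2 fold change of 0.25 in tumours and 5.51 in lung, where 22 rose and 2 fell. The tumour median was 0.14 without NNK + LPS 1, 0.12 without NNK 2 and 0.77 without NNK 3, and 0.41 with the term for the library sets. In tumours edgeR called none, 2 were higher and 1 lower at an unadjusted p under 0.05, and DESeq2 called 1. Il1b, a cytokine of the inflammasome, was at 11.7, 7.74 and 10.2 CPM in NNK + LPS tumours, against 18.1, 29.2 and 15.4 CPM in NNK tumours. All NNK + LPS values were below the NNK values, although the difference did not pass the test (log2 fold change -1.07 ± 0.40, edgeR adjusted p = 0.206). In lung Il1b was at 488, 408 and 459 CPM in LPS lung, against 6.60, 5.87 and 9.55 CPM in Control lung. Tnf, the gene of tumour necrosis factor, was at 3.08, 3.02 and 3.59 CPM in NNK + LPS tumours, against 1.60, 1.30 and 2.30 CPM in NNK tumours, low in all 6 libraries. Cxcl9, an interferon-gamma-induced chemokine, was at 45.4, 22.3 and 27.5 CPM in NNK + LPS tumours, against 5.75, 2.05 and 18.4 CPM in NNK tumours, and reached 1106, 860.3 and 1121 CPM in LPS lung. Ccl8, a monocyte chemokine, was at 39.8, 17.7 and 37.8 CPM in NNK + LPS tumours, against 5.88, 4.17 and 11.6 CPM in NNK tumours, without overlap (log2 fold change 2.13 ± 0.62, edgeR adjusted p = 0.121). The 19 TLR and NF-kB pathway genes had a median of 0.05, with none called by either tool and none at an unadjusted p under 0.05. All 19 rose in LPS lung. Tlr2, a receptor for bacterial lipoproteins, was at 51.7, 61.3 and 48.8 CPM in NNK + LPS tumours, against 48.6, 40.9 and 46.3 CPM in NNK tumours, and at 252, 214 and 249 CPM in LPS lung, against 36.9, 33.4 and 42.5 CPM in Control lung. The 12 nitric oxide and oxidant genes had a median of 0.11, none called by either tool and none at an unadjusted p under 0.05.

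Of 17 acute-phase and mucosal defence genes, edgeR called none, 4 were higher and 1 lower at an unadjusted p under 0.05, and DESeq2 called 2 higher. Lcn2, a siderophore-binding protein induced by bacterial products, was at 579.7, 469 and 356 CPM in NNK + LPS tumours, against 462, 205 and 500.3 CPM in NNK tumours, and the groups overlapped. In lung it was at 3506, 3699.7 and 5126 CPM in LPS lung, against 104, 70.4 and 93.2 CPM in Control lung. Slpi, a secreted protease inhibitor of mucosae, was at 196, 130.4 and 187 CPM in NNK + LPS tumours, against 94.5, 67.8 and 65.5 CPM in NNK tumours, without overlap (log2 fold change 1.17 ± 0.37, edgeR adjusted p = 0.140). Spag11b, a beta-defensin-like gene, was at 4.41, 7.67 and 5.35 CPM in NNK + LPS tumours, against 1.60, 0.547 and 2.43 CPM in NNK tumours, and had no counts in LPS or Control lung. All 4 antibody transport genes had a log2 fold change above 0, 1 at an unadjusted p under 0.05, and neither tool called any.

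Neutrophil genes had lower values in most NNK + LPS libraries, but the groups overlapped for all 13 genes. EdgeR and DESeq2 called none, 6 were lower at an unadjusted p under 0.05, and the median log2 fold change was -1.52, with 12 of 13 below 0. Summed levels were 263, 164 and 74.0 CPM in NNK + LPS tumours, against 535, 632 and 112 CPM in NNK tumours. NNK 1 and NNK 2 were high, whereas NNK 3 lay within the range of the NNK + LPS libraries. S100a9, a calcium-binding protein abundant in neutrophils, was at 83.9, 40.0 and 13.3 CPM in NNK + LPS tumours, against 199, 254 and 22.3 CPM in NNK tumours. Csf3r, the receptor of the granulocyte growth factor G-CSF, was at 41.0, 27.6 and 19.0 CPM in NNK + LPS tumours, against 67.1, 86.0 and 30.7 CPM in NNK tumours (log2 fold change -1.07 ± 0.46, edgeR adjusted p = 0.271). Without NNK 3 the median of the list was -1.89, and without NNK + LPS 3 it was -1.03. Ly6g, the surface marker that defines mouse neutrophils, was at 0.0629, 0.262 and 0 CPM in NNK + LPS tumours, against 0.669, 0.410 and 0 CPM in NNK tumours. It was thus at 0 in NNK + LPS 3 and in NNK 3. LPS lung differed from Control lung the other way, with 9 of 13 neutrophil genes risen.

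Genes of blood vessels had lower values in NNK + LPS tumours without passing edgeR's threshold. All 18 endothelial genes had a log2 fold change below 0, with a median of -0.45, 8 at an unadjusted p under 0.05, 7 without overlap and 2 called by DESeq2. Their summed level was 3070.4, 3616 and 5078 CPM in NNK + LPS tumours, against 5129, 6046 and 5461 CPM in NNK tumours. NNK + LPS 3 was close to the NNK libraries, and NNK + LPS 1 and NNK + LPS 2 were lower. Pecam1, an adhesion molecule of endothelium, was at 431, 510.0 and 637 CPM in NNK + LPS tumours, against 671, 813 and 644 CPM in NNK tumours. Plvap, a protein of endothelial fenestrae, was at 137, 148 and 214 CPM in NNK + LPS tumours, against 288, 319.7 and 304 CPM in NNK tumours (log2 fold change -0.87 ± 0.22, edgeR adjusted p = 0.0917, and 0.0387 without NNK + LPS 3). The median without NNK + LPS 1 was -0.29 and without NNK + LPS 3 -0.66. In LPS lung 16 of the 18 fell. Of 16 fibroblast genes, 4 were lower at an unadjusted p under 0.05, edgeR called none, DESeq2 called 1 lower and the median was -0.19. Pdgfra, a growth factor receptor of lung fibroblasts, was at 189, 195 and 224 CPM in NNK + LPS tumours, against 272, 300.1 and 252 CPM in NNK tumours, without overlap. Col1a1, a collagen gene, was at 110.2, 83.0 and 103 CPM in NNK + LPS tumours, against 105, 114 and 109 CPM in NNK tumours. Heart muscle genes, which mark tissue next to the lung or pulmonary veins, were below 0 in 9 of 9 cases, with a median of -1.02, 2 at an unadjusted p under 0.05 and none called by either tool. Their summed level was 168, 88.0 and 88.1 CPM in NNK + LPS tumours, against 165, 271 and 123 CPM in NNK tumours, and the groups overlapped. The heart muscle median was -1.66 without NNK + LPS 1 and -0.59 without NNK 2. The 9 adipocyte genes had a median of -0.70, with 2 lower at an unadjusted p under 0.05 and none called by either tool. That median was -2.44 without NNK + LPS 1, -0.12 without NNK + LPS 2, -0.26 without NNK + LPS 3 and 0.18 without NNK 2, so its size and sign rest on single libraries. The part of neighbouring tissue in the other lists was not tested.

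Epithelial marker lists had medians near 0. The 17 alveolar type 2 genes had a median of 0.20, with 15 above 0 and 2 below. Of these genes 4 were higher and 1 lower at an unadjusted p under 0.05, and neither tool called any. The 11 alveolar type 1 genes had a median of -0.08, the 11 club cell genes -0.11 and the 12 ciliated cell genes -0.17. Below 0 were 8 of the alveolar type 1 genes, 8 of the club cell genes and 11 of the ciliated cell genes. None of these 3 lists held a gene called by either tool or one with an unadjusted p under 0.05. Cyp2f2, an oxidising enzyme of club cells, was at 2477, 1972 and 2899 CPM in NNK + LPS tumours, against 1943, 2988 and 2879.5 CPM in NNK tumours, and the groups overlapped. Muc5b, an airway mucin, was at 124, 13.7 and 22.9 CPM in NNK + LPS tumours, against 98.4, 179 and 53.6 CPM in NNK tumours, with a wide spread within both groups. The 10 mucous cell genes had a median of 0.25, and of -0.77 without NNK + LPS 1, with 2 higher at an unadjusted p under 0.05 and none called by either tool.

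Genes of tumour signalling were close to 0 as groups. The 18 RAS-MAPK target and feedback genes had a median of -0.01, the 13 p53 target genes 0.05 and the 30 cell cycle genes 0.04. In each of these 3 lists 1 gene was higher and 1 lower at an unadjusted p under 0.05, and neither tool called any. Etv4, a transcription factor downstream of ERK, was at 6.29, 7.41 and 5.06 CPM in NNK + LPS tumours, against 7.36, 2.80 and 8.28 CPM in NNK tumours, and the groups overlapped. The 16 glycolysis and hypoxia genes had a median of 0.32, with 6 higher at an unadjusted p under 0.05, none called by edgeR and 2 by DESeq2. That median was 0.13 without NNK + LPS 2 and 0.51 without NNK + LPS 3. Of 16 cholesterol and fatty acid synthesis genes, 5 were lower at an unadjusted p under 0.05, edgeR called none and DESeq2 called 1. The 17 xenobiotic enzyme genes had a median of -0.06, with 1 higher at an unadjusted p under 0.05 and that gene called by DESeq2. It was Ugt1a7c, a glucuronidating enzyme, at 29.0, 37.8 and 25.8 CPM in NNK + LPS tumours, against 18.1, 20.6 and 17.3 CPM in NNK tumours (log2 fold change 0.73 ± 0.16, edgeR adjusted p = 0.0722, and 0.0330 without NNK + LPS 3).

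Of the nuclear-encoded respiratory chain genes, all 20 had a log2 fold change above 0, with a median of 0.25, 10 at an unadjusted p under 0.05, 14 without overlap, none called by edgeR and 4 by DESeq2. In lung 11 of the 20 rose, with a median of 0.28. Atp5k, a small subunit of ATP synthase, was at 31.0, 34.8 and 37.6 CPM in NNK + LPS tumours, against 20.8, 21.3 and 19.1 CPM in NNK tumours. The LPS lung libraries were at 31.4, 28.7 and 56.0 CPM, with LPS 3 far above the other pair. With a term for the library sets the list median was 0.07, and the difference of Atp5k was -0.14 ± 0.19. For this list, LPS and the library split cannot be told apart. 

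Clock genes lay on both sides of 0. Of 16 circadian genes edgeR called none, 5 were higher and 3 lower at an unadjusted p under 0.05, and DESeq2 called 1 higher and 2 lower. The median was 0.50, or 0.26 without NNK + LPS 2 and 0.27 without NNK 3. Arntl, the activator of the clock, was at 12.0, 9.84 and 15.8 CPM in NNK + LPS tumours, against 23.7, 20.2 and 33.6 CPM in NNK tumours, and Npas2, its partner, at 2.58, 2.10 and 4.04 CPM in NNK + LPS tumours, against 9.16, 7.04 and 21.0 CPM in NNK tumours. Both were lower in NNK + LPS libraries without overlap. Dbp, which the activators induce, was at 75.0, 84.6 and 53.3 CPM in NNK + LPS tumours, against 15.1, 38.1 and 11.5 CPM in NNK tumours, and the repressor gene Per3 at 64.7, 92.8 and 45.0 CPM in NNK + LPS tumours, against 27.3, 34.2 and 22.3 CPM in NNK tumours, both higher without overlap. The hour of sampling is not in the labels, and its part in these differences was not tested.

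The median log2 fold changes were 0.22 for 12 dendritic cell genes, -0.00457 for 7 mast cell and eosinophil genes, 0.20 for 12 keratin and epithelial injury genes, 0.06 for 17 matrix and invasion genes and 0.14 for 4 skeletal muscle genes. They were 0.10 for 16 unfolded protein stress genes (14 above 0 and 2 below), -0.06 for 16 immediate early and heat shock genes, -0.05 for 12 NRF2 targets and 0.07 for 6 AhR targets. For 12 glucocorticoid-induced and metallothionein genes the median was 0.05, for 15 prostaglandin and leukotriene genes -0.07, for 14 integrin and TGF-beta genes -0.06 and for 4 genes of the Dlk1-Meg3 imprinted locus -0.000473. EdgeR called none of the genes in these 13 lists, 14 were higher and 6 lower at an unadjusted p under 0.05, and DESeq2 called 2 higher and 1 lower, counting a gene in each list that holds it. The median of the Dlk1-Meg3 genes was 2.76 with the term for the library sets, and that of the skeletal muscle genes -0.59 without NNK + LPS 1. Several list medians changed sign in at least 1 fit that left out a single tumour library. Examples are the matrix, immediate early, AhR, xenobiotic, keratin, and mast cell and eosinophil lists. The B cell, alveolar type 1, club, ciliated, and TLR and NF-kB lists did so too, and these examples are not a full list. Among the 48 lists Ly6c2 was the single gene called.

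The response to LPS was much smaller in tumours than in lung without tumours. Among the 7890 genes that edgeR called in lung (LPS against Control), 98.3% had a smaller log2 fold change in tumours, regardless of sign. The median size over these genes was 0.163 in tumours, against 0.705 in lung, and 72.3% had the same sign in both. The interaction, the tumour difference minus the lung difference, was called for 3955 genes by edgeR, 10.7% of genes higher and 14.4% lower. For the 3789 genes called both for the interaction and in lung, the interaction opposed the lung difference in 3789. The lung difference enters the interaction with its sign reversed, so for genes called in lung this count was largely set in advance. The lung contrast chose these genes, so a smaller value in tumours is in part a matter of that choice, while the interaction tests the difference itself. Tumour and lung differ in tissue as well as in NNK, and the library split runs between the tumour groups and through the LPS lung group.

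**Figure D4:**
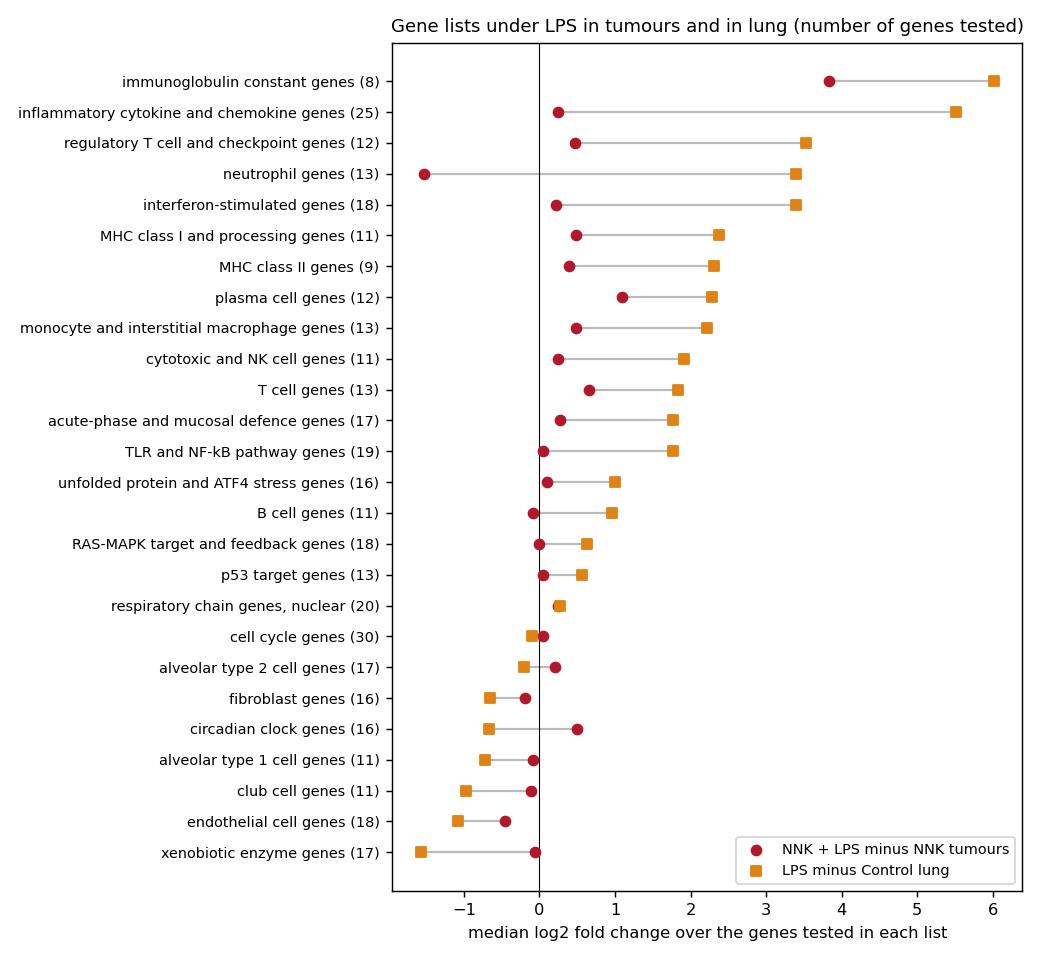
Each row is a gene list with its number of genes tested, and plots the median log2 fold change of NNK + LPS over NNK tumours (red circles) and of LPS over Control lung (orange squares). Cytokine genes reach 5.51 in lung and 0.25 in tumours, and neutrophil genes lie on opposite sides of 0. The immunoglobulin list is the farthest from 0 in tumours and lies farther still in lung, at 6.01.

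By list, all 18 interferon-stimulated genes and all 11 MHC class I genes were called for a lower interaction, as were 18 of 19 TLR and NF-kB genes, 20 of 25 cytokine genes and 11 of 13 neutrophil genes. Irg1, which encodes the itaconate-producing enzyme of activated macrophages, was at 2.45, 0.984 and 0.626 CPM in NNK + LPS tumours, against 1.94, 2.26 and 2.30 CPM in NNK tumours. In lung it was at 690.1, 451 and 478 CPM in LPS lung, against 0.759, 0.0638 and 0.581 CPM in Control lung, and the interaction was -10.89 ± 1.42 on the log2 scale (edgeR adjusted p = 6.32e-05). Ubd, a ubiquitin-like gene induced by interferon and tumour necrosis factor, was at 15.2, 2.82 and 5.58 CPM in NNK + LPS tumours, against 1.00, 0.478 and 20.0 CPM in NNK tumours, and at 296, 262 and 332 CPM in LPS lung, against 0.152, 0.0638 and 0.452 CPM in Control lung. NNK 3 was high for Ubd within its group, and the interaction was -10.19 ± 2.29. The acute-phase gene Orm2 was at 0.315, 0.262 and 0.171 CPM in NNK + LPS tumours, against 0.401, 0.342 and 0.460 CPM in NNK tumours, and at 25.4, 30.8 and 35.4 CPM in LPS lung, against 0.0759, 0.0638 and 0.129 CPM in Control lung. Cxcl11, an interferon-induced chemokine, reached 10.9 CPM in LPS lung and had no counts in Control, with 1 count over the NNK + LPS libraries and 4 over the NNK libraries. Mrgpra2b, a receptor gene of the Mas-related family, was at 15.4, 10.7 and 15.2 CPM in LPS lung and below 3 CPM in the tumours. Slc28a1, a nucleoside transporter, varied between libraries of the same group, at 0, 0.197 and 0 CPM in NNK + LPS tumours, against 23.5, 0 and 47.1 CPM in NNK tumours.

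In the other direction were xenobiotic and epithelial genes that fell in LPS lung and were not called in tumours. Of 17 xenobiotic enzyme genes, 15 fell in lung and 11 were called for a higher interaction, and of 11 club cell genes 8 fell in lung and 7 were called for a higher interaction. Cyp2e1, an enzyme that oxidises small molecules, was at 4.09, 3.08 and 2.16 CPM in NNK + LPS tumours, against 1.94, 4.17 and 1.51 CPM in NNK tumours, and at 1.36, 1.09 and 0.539 CPM in LPS lung, against 8.27, 5.43 and 14.3 CPM in Control lung, with an interaction of 3.52 ± 0.61. Fabp1, a fatty acid-binding protein gene, was at 10.1, 11.8 and 8.25 CPM in NNK + LPS tumours, against 13.2, 16.2 and 9.86 CPM in NNK tumours, and at 0.502, 0.614 and 0.337 CPM in LPS lung, against 21.7, 14.4 and 13.0 CPM in Control lung. LPS lung was the group that stood apart. Cyp4a12b, a fatty acid hydroxylase, was at 5.85, 8.79 and 5.58 CPM in NNK + LPS tumours, against 4.55, 5.81 and 5.00 CPM in NNK tumours, and at 0.143, 0.341 and 0.539 CPM in LPS lung, against 4.85, 6.26 and 7.23 CPM in Control lung. Bex2 was at 27.2, 30.5 and 27.8 CPM in NNK + LPS tumours, against 31.4, 23.0 and 31.7 CPM in NNK tumours, and at 2.01, 1.09 and 1.48 CPM in LPS lung, against 16.8, 17.0 and 9.94 CPM in Control lung. Grin2b, a glutamate receptor subunit, was at 0.692, 0.328 and 1.31 CPM in NNK + LPS tumours, against 1.54, 2.94 and 1.51 CPM in NNK tumours, and had 5 counts over the LPS libraries against 137 over the Control libraries. Cd209b, a lectin of macrophages, had 23 counts over the NNK + LPS libraries and 107 over the NNK libraries, and 2 over the LPS libraries against 233 over the Control libraries. The fitted interactions of Cxcl11, Slc28a1, Mrgpra2b and Cd209b rest on a group with 3 counts or fewer and are no bound.

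**Figure D5:**
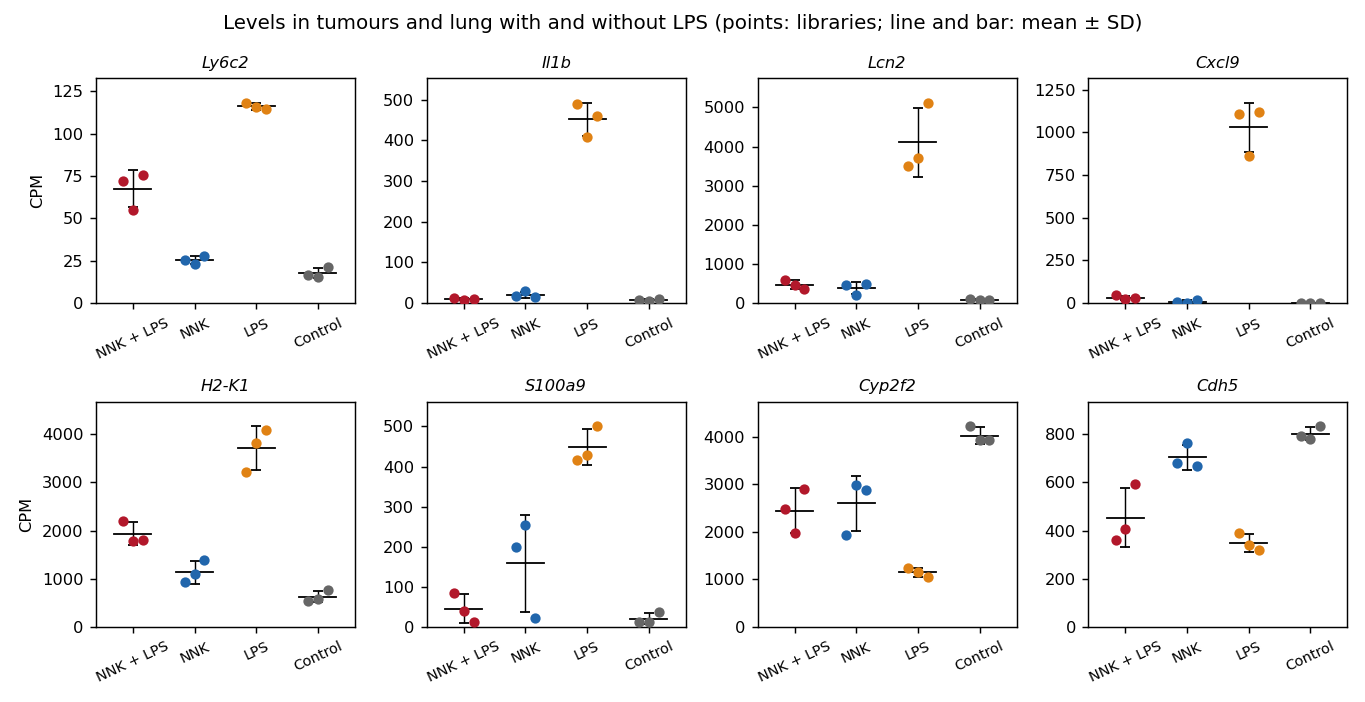
Panels plot CPM of 8 genes in NNK + LPS and NNK tumours and in LPS and Control lung, 1 point per library, with mean and SD. Il1b, Lcn2, Cxcl9 and S100a9 are highest in LPS lung, Ly6c2 and H2-K1 lie higher in the LPS-exposed group of either tissue, and Cyp2f2 and Cdh5 are lower in LPS than in Control lung.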

How the data were processed

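RNA-seq was made from total RNA with a TruSeq RNA kit (version 2), per the labels' protocols. The authors deposited whole-number read counts per gene for 21 libraries, 3 in each of 7 groups. The build was mm10, per the submitters' processing notes. The aligner, the counter, the annotation and the use of strand were not given in the sources used here, so overlapping and antisense genes could not be told apart.

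Of 38924 genes, 16756 had no counts in any library, and 15770 passed edgeR's filter on low counts (minimum count 10). Counts were scaled by TMM and tested with edgeR's quasi-likelihood test (R 4.3.3, edgeR 4.0.16, limma 3.58.1) on all 7 groups, which left 14 residual degrees of freedom, with Benjamini-Hochberg adjustment over all genes tested. The contrasts were NNK + LPS minus NNK, LPS minus Control and their difference, the interaction. "Called" means an adjusted p under 0.05, and ± in a log2 fold change is its SE. The script was tested on simulated data.

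Alternatives were DESeq2 1.42.0, no filter on low counts, size factors by relative log expression, a fit of the groups compared alone, thinning to the shallowest library, a replicate block, a term for the library sets, a fold of at least 2 and leaving out each library. The library sets come from the number of mt-Atp8 counts per mt-Atp6 count, not from the labels. The comparison and the 48 gene lists were chosen with earlier results of these data known. Named genes were the called genes with the largest changes and a mean of at least 1 CPM, the called and the first 3 members of each list, and the 6 highest and 6 lowest interactions, leaving out uncharacterised models. 4933434E20Rik and members beyond the first 3 were named after their values were seen. Gene coordinates and coding sequences came from GENCODE M21 (GRCm38), and promoter windows from RefSeq. The chemoprevention groups entered the fit and are not reported here. A few list members are not reported here.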

Additional observations from a re-analysis of the deposited data

Results flagged for a closer look

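The difference between the tumour response and the lung response to LPS passed edgeR's test for 3955 genes. Values below are the interaction on the log2 scale, the NNK + LPS minus NNK difference less the LPS minus Control difference, each with an edgeR adjusted p under 0.05. Below 0 the tumour value lies under the lung value.

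Among the genes called in tumours the interaction was -1.29 for Ly6c2, -1.17 for Clec4a2, -0.92 for Cd63, -0.87 for H2-T22 and -0.42 for Kazn. It was 0.32 for Ypel5 and 1.64 for mt-Atp8. For mt-Atp8 the lung contrast averages LPS libraries of both library sets.

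Among the antibody and myeloid genes it was -4.02 for Igha, -2.61 for Igkc, -2.97 for Igj, -2.35 for Ms4a7, -1.68 for C1qa, -1.68 for the lysosomal macrophage gene Cd68, -2.36 for Marco, -2.04 for Trem2, -4.70 for Csf3r and -6.22 for S100a9. For chemokines, cytokines and defence genes it was -7.01 for Il1b, -3.48 for Ccl8, -3.16 for Cxcl13, -1.79 for Slpi, -1.79 for H2-K1 and -1.51 for B2m. Among the remaining genes it was 0.59 for Pdgfra, -0.82 for Ugt1a7c, -1.91 for Npas2, 2.36 for Per3 and 2.96 for Dbp.

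The lowest interactions were those of Cxcl11 (-11.64), Slc28a1 (-11.34), Irg1 (-10.89), Ubd (-10.19), Mrgpra2b (-9.90) and Orm2 (-8.98). The highest were those of Fabp1 (4.68), Cyp4a12b (4.52), Cd209b (4.32), Cyp2e1 (3.52), Grin2b (3.31) and Bex2 (3.24). For Cxcl11, Slc28a1, Mrgpra2b and Cd209b a group holds 3 counts or fewer, so the value depends on the prior count.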

How the results depend on the processing

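The count of genes called between NNK + LPS and NNK tumours was 15. It was 20 with size factors by relative log expression, 15 without the filter, 19 with the groups compared alone and 13 after thinning, and 7 at a fold of at least 2. DESeq2 called 494 and the term for the library sets left 0 (871 at an unadjusted p under 0.05). For the tumour contrast that term rests on LPS 3 against LPS 1 and LPS 2 alone, with a single library on 1 side. The chemoprevention group that is split between sets holds no library of the NNK set, so it does not bear on this contrast. Leaving out a library gave 0 (without NNK 2) to 223 (without NNK + LPS 3). All 15 genes were among those called with relative log expression, DESeq2 and without NNK + LPS 3, against 5 with the groups compared alone. With the replicate block 37 genes were called, all 15 among them and Marco too (edgeR adjusted p = 0.0433). The title numbers do not match between the groups, and deviations of same-numbered libraries correlated by -0.07, -0.12 and 0.25, so the replicate number was taken as a name and not as a pairing. The cause of these differences was not tested.

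Over the genes named for the tumour contrast, 555 values under an alternative kept direction and side of the threshold, 96 lost the call, 37 gained it and 1 turned. The value that turned was that of Atp5k, at -0.14 with the term for the library sets. In this contrast only genes called between NNK + LPS and NNK tumours could lose a call, and all 96 losses fell on them. The 555 also hold genes that were not called and stayed so. They are therefore no measure of how stable the calls are. For the genes named for the highest and lowest interactions, 221 values kept the interaction call under an alternative and 7 lost it. The lung count was 6613 to 8039 against 7890, and the interaction count 3005 to 4224 against 3955. List medians were set against the SD, over the 3 NNK + LPS libraries, of each library's median difference from the NNK mean. By that measure 582 moved by less than the SD and 42 by as much or more. The spread of the NNK libraries is not in it. Where the SD is wide, large moves count as small. For B cell genes it was 0.86, so medians of -0.52 without NNK + LPS 3 and 0.43 without NNK 3 are among the 582.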
